A study of Mus musculus with 11 samples.

Results

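*Cd69* and 8 early response genes, *Egr1*, *Egr2*, *Egr3*, *Fos*, *Jun*, *Myc*, *Dusp4* and *Dusp6*, were followed in MC38 tumors of mice given PBS or hetIL-15. They were chosen by name, and all 9 are among the genes with deposited values, which number 738 of the panel's immune and cancer genes and 20 housekeeping genes. MC38 is a mouse colon carcinoma line, and hetIL-15 is the heterodimer of IL-15 and its receptor alpha chain. C57BL/6 mice 6 to 8 weeks old received 100000 to 200000 MC38 cells under the skin of the flank. Treatment began 5 days later with intraperitoneal injections, 3 per week, of PBS or of 3 µg hetIL-15. RNA was taken from the whole tumor 3 h after injection 4, in 5 PBS tumors and 6 hetIL-15 tumors. The genotype of the mice is not in the labels, and the strain is taken from the study's methods, which name C57BL/6 as its wild type mice. The labels number the tumors without naming the animal, so the p values below measure the spread between these tumors.

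CD69 is a membrane protein of the C-type lectin family that lymphocytes display soon after activation, and it holds them in tissue by pulling the sphingosine phosphate receptor S1PR1 from the cell surface. Immediate early genes are transcribed within minutes of a signal without new protein synthesis, mostly through MAP kinases and calcium. Their products are largely transcription factors (EGR proteins, FOS, JUN and MYC) that switch on later genes, or phosphatases (DUSP proteins) that switch the kinases off again. Most cell types use them, so in a tumor they report on cancer cells, stroma and leukocytes together, whereas *Cd69* is mainly a gene of leukocytes.

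Promoters of *Fos* and *Egr2* are printed as examples of early response promoters. The stretches below are the 120 bases before an annotated start in the RefSeq promoter table (build GRCm38.p6), which held 4 of the 9 genes, *Fos*, *Egr2*, *Jun* and *Dusp6*. They are shown because *Fos* and *Egr2* were the only ones of the 4 in which a searched motif was found. Capitals mark motif matches on either strand. In *Fos* (chr12:85473770-85473889, plus strand) they mark TGACG, the core of the cAMP response element, and the TATA box TATAAA. In *Egr2* (chr10:67537749-67537868, plus strand, 1 of 5 annotated starts, the one with the most motif kinds) they mark the CArG box, which binds serum response factor, and TGACG on each strand.
Fos: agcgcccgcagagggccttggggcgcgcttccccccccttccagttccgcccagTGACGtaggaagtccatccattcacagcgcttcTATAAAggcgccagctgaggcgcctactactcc
Egr2: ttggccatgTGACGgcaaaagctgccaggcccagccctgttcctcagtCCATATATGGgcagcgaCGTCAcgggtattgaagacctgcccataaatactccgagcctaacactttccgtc
The search covered the 250 bases before each start. Of all 32851 windows in the table, 1.47% held a CArG box, 17.8% held TGACG and 12.4% held TATAAA. The other motifs searched were the AP-1 site TGANTCA (6.75% of windows), the full cAMP response element TGACGTCA (1.55%, which contains TGACG), the EGR site GCGNGGGCG (4.70%) and the STAT site TTCNNNGAA (7.02%), and none of the 4 genes held one of them. A match describes the letters only.

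Values are the authors' quantile normalized log2 values, made after genes of low expression were removed. Converted to linear units they add up to 999186 to 999245 per tumor, with a median log2 value of 7.66 to 7.68, so each is a share of the signal. Of the values in a tumor, 69.9% are tied with another gene. Depth per tumor is not known here. A gene is called low in signal where its mean lies in the lowest 25% of genes (under a log2 value of 5.18), as for *Egr2* and *Egr3*. Of 4 measured epithelial markers, 3 were low in signal, *Epcam* and *Cdh1* among them. On the first principal component, PBS replicates 4 and 5 lay at −8.48 and −12.3, and the other tumors between −4.06 and 9.42.

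*Cd69* was higher in every hetIL-15 tumor than in every PBS tumor. Its normalized log2 value was 6.92, 7.42, 7.12, 7.18 and 6.98 in PBS replicates 1 to 5. The hetIL-15 tumors had a lowest value of 7.72 (replicate 5), a median of 8.30 and a highest value of 8.46 (replicate 1). The group means were 7.12 ± 0.20 (SD, n = 5) and 8.21 ± 0.28 (SD, n = 6), a 2.13-fold difference on the linear scale. By limma this was 1.09 on the log2 scale (SE 0.15, 95% interval 0.76 to 1.42), with an adjusted p of 0.00404 (Benjamini-Hochberg) and of 0.0123 (Bonferroni, 0.528% of genes higher) over all genes tested. It ranked 3 by p among all genes and 19 by log2 fold change. *Cd69* was 1 of 13 genes that passed upward (1.72% of genes tested), and 1 of 14 whose groups did not overlap with hetIL-15 higher (1.85%). The call held without any 1 tumor (adjusted p of at most 0.0146) and without PBS replicates 4 and 5 together (adjusted p = 0.0495). It ended with the replicate number as a block, a fit that leaves out hetIL-15 replicate 6 (adjusted p = 0.0674). An exact Mann-Whitney test per gene passed no gene, *Cd69* included. Its smallest possible p, 0.00433, was reached by 19 genes, *Cd69* among them, and adjusts to 0.173.

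None of the other 8 genes passed in either direction at 3 h after the injection, and no earlier time was measured in these tumors. Over all genes, 0.396% passed downward. At an unadjusted p under 0.05, limma also gave 0 of the 8, against 11.9% of all genes. Their means were higher with hetIL-15 in 4 and lower in 4, with a median log2 fold change of −0.07, against −0.03 over all genes. The 95% intervals lay within a 2-fold change in either direction for 7 of the 8, and that of *Egr2* did not.

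**Figure D1:**
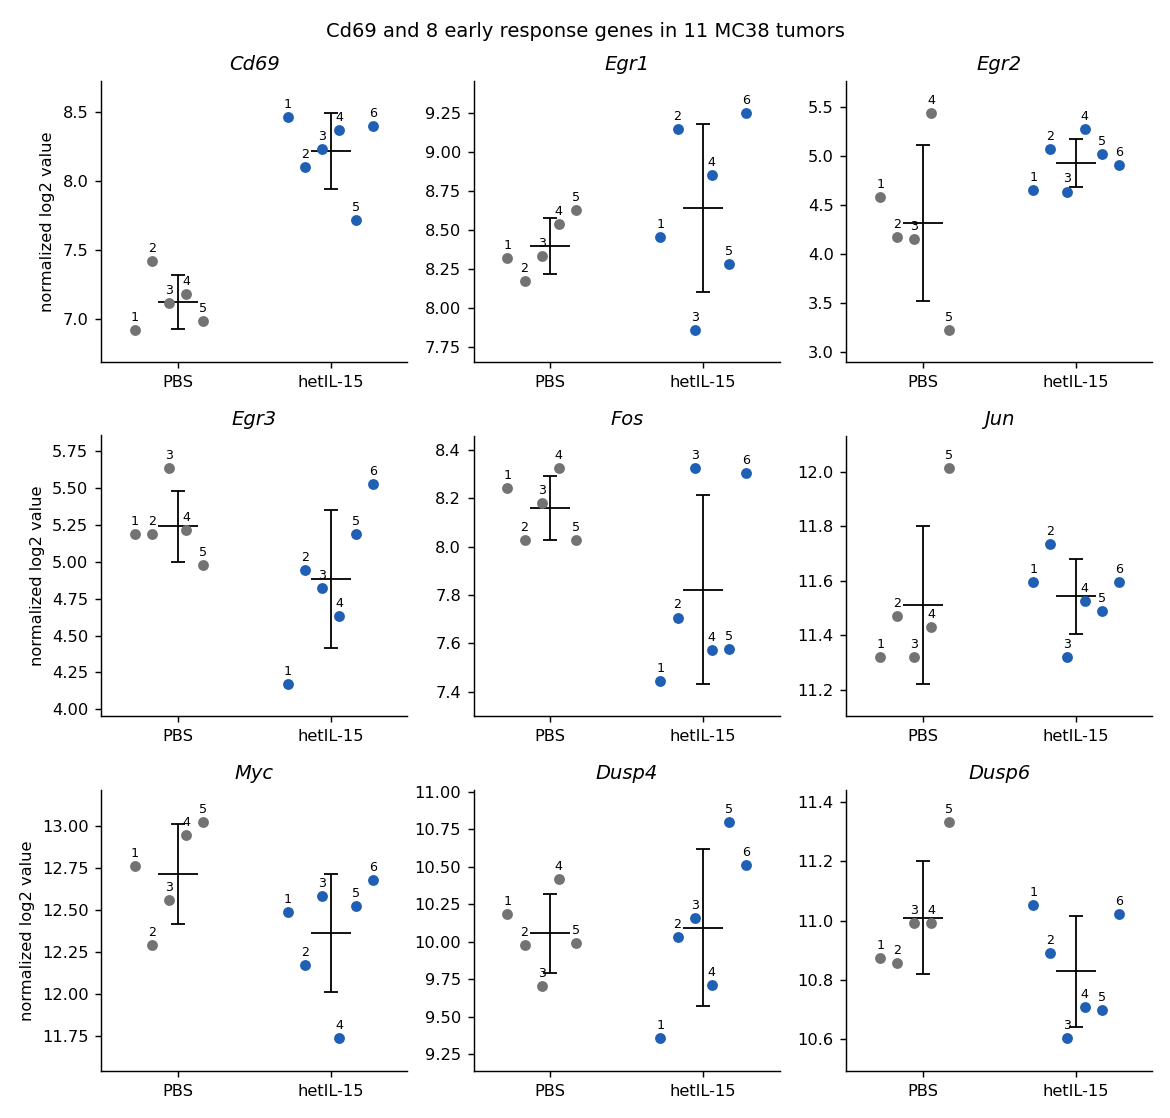
Normalized log2 values of the 9 genes in 5 PBS tumors (gray) and 6 hetIL-15 tumors (blue), with replicate numbers, and the mean with SD in black; each panel has its own axis, which does not start at 0. The groups separate for *Cd69*, with the hetIL-15 tumors at 7.72 or higher and the PBS tumors at 7.42 or lower, and overlap for the other genes.

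**Figure D2:**
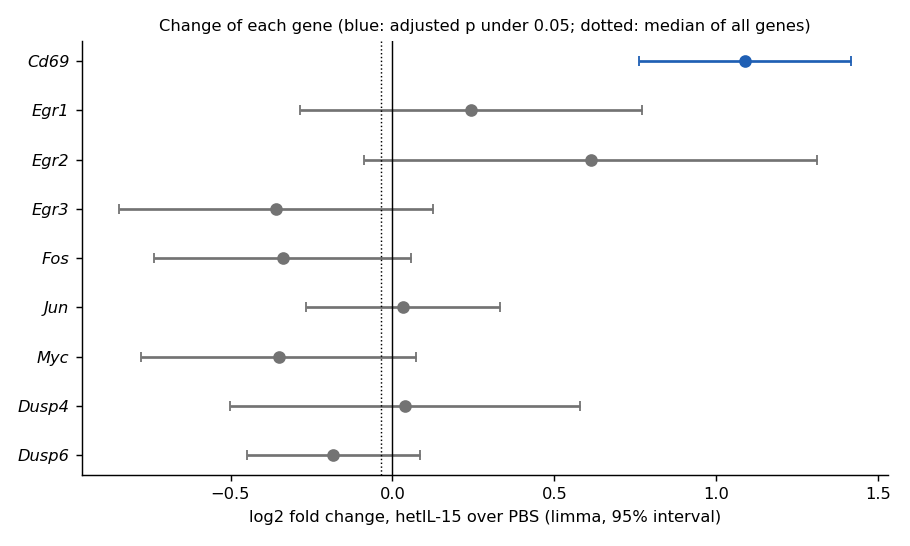
Log2 fold change of each gene, hetIL-15 over PBS, with its 95% interval from limma, and the median of all genes as a dotted line. The interval of *Cd69*, 0.76 to 1.42, lies above 0, and the 8 other intervals include 0.

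The EGR proteins are zinc finger transcription factors, of which EGR2 and EGR3 are known to restrain T cell activation. *Egr1* had log2 values of 8.32, 8.17, 8.33, 8.54 and 8.63 in PBS replicates 1 to 5. The hetIL-15 tumors ran from 7.86 (replicate 3) to 9.25 (replicate 6), with a median of 8.66. Of the 6 hetIL-15 tumors, 3 lay above all PBS tumors and 1 lay below all of them. Its fold change on the log2 scale was 0.24 (SE 0.24, 95% interval −0.28 to 0.77, adjusted p = 0.781 from limma). It was 0.12 without hetIL-15 replicate 6, 0.14 without replicate 2 and 0.40 without replicate 3.

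*Egr2* lay at 4.58, 4.17, 4.15, 5.43 and 3.23 in PBS replicates 1 to 5. In hetIL-15 tumors it ran from 4.64 to 5.27, with a median of 4.96, inside the PBS range. Its fold change on the log2 scale was 0.61 (SE 0.32, 95% interval −0.09 to 1.31, adjusted p = 0.513 from limma), the largest of the 8, at a low signal. It was 0.34 without PBS replicate 5, the lowest tumor, and 0.89 without PBS replicate 4, the highest. For *Egr3* the PBS tumors lay between 4.98 and 5.63 and the hetIL-15 tumors between 4.17 and 5.53, with 4 of 6 hetIL-15 tumors below all PBS tumors. Its log2 fold change was −0.36 (SE 0.22, 95% interval −0.85 to 0.13, adjusted p = 0.597 from limma), also at a low signal, or −0.22 without hetIL-15 replicate 1.

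FOS and JUN pair to form AP-1, a transcription factor that takes part in the induction of *Cd69* and of many cytokine genes. *Fos* had log2 values of 8.24, 8.03, 8.18, 8.33 and 8.03 in PBS replicates 1 to 5. The hetIL-15 tumors ran from 7.45 (replicate 1) to 8.33 (replicate 3), with a median of 7.64. Of these, 4 lay below all PBS tumors, while replicates 3 and 6 lay inside the PBS range. Its fold change on the log2 scale was −0.34 (SE 0.18, 95% interval −0.73 to 0.06, adjusted p = 0.523 from limma; exact permutation p = 0.102). *Jun* lay at 11.32, 11.47, 11.32, 11.43 and 12.01 in PBS replicates 1 to 5 and between 11.32 and 11.73 in hetIL-15 tumors. Its log2 fold change was 0.03 (SE 0.14, 95% interval −0.27 to 0.33, adjusted p = 0.954 from limma), or 0.16 without PBS replicate 5.

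*Myc* encodes a transcription factor of growth and metabolism. It had log2 values of 12.76, 12.29, 12.56, 12.95 and 13.02 in PBS replicates 1 to 5. The hetIL-15 tumors ran from 11.73 (replicate 4) to 12.68 (replicate 6), with a median of 12.50. Most hetIL-15 tumors lay inside the PBS range and 2 lay below it. Its fold change on the log2 scale was −0.35 (SE 0.19, 95% interval −0.78 to 0.07, adjusted p = 0.540 from limma), −0.17 without PBS replicates 4 and 5, the highest PBS tumors, and −0.23 without hetIL-15 replicate 4, the lowest.

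The DUSP proteins are MAP kinase phosphatases: DUSP4 is nuclear, and DUSP6 is cytoplasmic and specific for ERK. Their genes are induced by ERK signaling and so are used as readouts of it. *Dusp4* lay at 10.18, 9.98, 9.71, 10.42 and 9.99 in PBS replicates 1 to 5, inside the range of the hetIL-15 tumors, from 9.36 (replicate 1) to 10.79 (replicate 5). Its log2 fold change was 0.04 (SE 0.24, 95% interval −0.50 to 0.58, adjusted p = 0.962 from limma). *Dusp6* lay at 10.87, 10.86, 10.99, 10.99 and 11.33 in PBS replicates 1 to 5. In hetIL-15 tumors it ran from 10.60 (replicate 3) to 11.05 (replicate 1), with a median of 10.80 and 3 of 6 tumors below all PBS tumors. Its fold change on the log2 scale was −0.18 (SE 0.12, 95% interval −0.45 to 0.09, adjusted p = 0.639 from limma), or −0.10 without PBS replicate 5, the highest PBS tumor.

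The spread within groups also differed between genes, as a description without a test. The SD of *Fos* was 0.39 in hetIL-15 tumors and 0.13 in PBS tumors, a ratio of 2.97, and that of *Egr1* was 0.54 and 0.18, also a ratio of 2.97. *Dusp4* (ratio 1.97) and *Egr3* (1.94) were likewise more spread with hetIL-15, while *Egr2* (0.31) and *Jun* (0.48) were more spread among PBS tumors. Over all genes the median ratio was 1.02.

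The change of *Cd69* was also set against that of each of the 8 other genes. *Cd69* was already known as the only 1 of the 9 genes that passed. Small p values were therefore likely in advance, and they are no separate support. For this comparison, chosen after the values were seen, the log2 value of the other gene was subtracted from that of *Cd69* in each tumor, and the groups were compared by an exact two-sided permutation test over all 462 groupings, adjusted over the 8 genes. The change of *Cd69* was larger by 1.43 than that of *Fos*, by 1.06 than that of *Jun*, by 1.44 than that of *Myc* and by 1.27 than that of *Dusp6* (adjusted p = 0.00433 each). It was larger by 1.45 than that of *Egr3* (adjusted p = 0.00693), by 0.85 than that of *Egr1* (adjusted p = 0.0202) and by 1.05 than that of *Dusp4* (adjusted p = 0.0297). Against *Egr2* the difference of 0.48 did not pass (adjusted p = 0.223). Without PBS replicates 4 and 5 the exact permutation p was 0.0833 for *Egr1* and for *Dusp4*, and 0.0119, the smallest possible, for *Fos*, *Jun*, *Myc*, *Dusp6* and *Egr3*.

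*Cd69* was also set against leukocyte markers of the same tumor, since in bulk tissue more cells of a type and more RNA per cell cannot be told apart. Each measure is the log2 value of *Cd69* minus that of the marker or the mean of the markers, and only its difference between groups has a meaning. Relative to *Ptprc*, which encodes the leukocyte marker CD45, *Cd69* was 1.10 higher with hetIL-15 (exact permutation p = 0.00216, adjusted over 3 measures p = 0.00325), and relative to the mean of 9 T cell markers it was 1.05 higher (the same p values). In both measures all 6 hetIL-15 tumors lay above all PBS tumors. *Ptprc* itself had a log2 fold change of −0.01 (adjusted p = 0.989 from limma), and the mean of the T cell markers differed by 0.04 (exact permutation p = 0.866), with 6 of the 9 markers low in signal.

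As a list, NK cell markers were also higher with hetIL-15. The summed linear level of 12 measured NK cell markers was 1157 to 1524 in PBS tumors and 1594 to 1935 in hetIL-15 tumors, and their mean log2 value was 0.62 higher (exact permutation p = 0.00216). Of the 12, 2 rose, *Ncr1* (log2 fold change 1.10, adjusted p = 0.0162 from limma), which encodes the activating receptor NKp46, and *Klrc1* (1.32, adjusted p = 0.0227 from limma), which encodes the receptor chain NKG2A, and 4 were low in signal. The mean was higher with hetIL-15 in 9 of the 12 and not in the rest, *Eomes* among them (log2 fold change −0.15, adjusted p = 0.891 from limma). Without PBS replicates 4 and 5, 1 of the 12 rose. Relative to the mean of the 12, *Cd69* was 0.47 higher with hetIL-15 (exact permutation p = 0.0346, adjusted over 3 measures p = 0.0346), with 4 of 6 tumors above all PBS tumors. Relative to the median level of the 12 in each tumor, the difference was −0.01 (exact permutation p = 0.970). The median of the 12 log2 fold changes was 0.63, against 1.09 for *Cd69*. The call relative to the mean ended in 7 of 11 repeats with 1 tumor left out (PBS replicates 1, 3 and 5, and hetIL-15 replicates 1, 2, 4 and 6), and without PBS replicates 4 and 5 together (difference 0.49, exact permutation p = 0.0714). The summed levels of the other marker lists overlapped between groups: macrophages and monocytes lay at 5250 to 6954 in PBS tumors and 5055 to 7359 in hetIL-15 tumors, and B cell markers, all low in signal, at 119 to 153 and 97.7 to 169. The part of NK cell number in the level of *Cd69* was not tested.

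**Figure D3:**
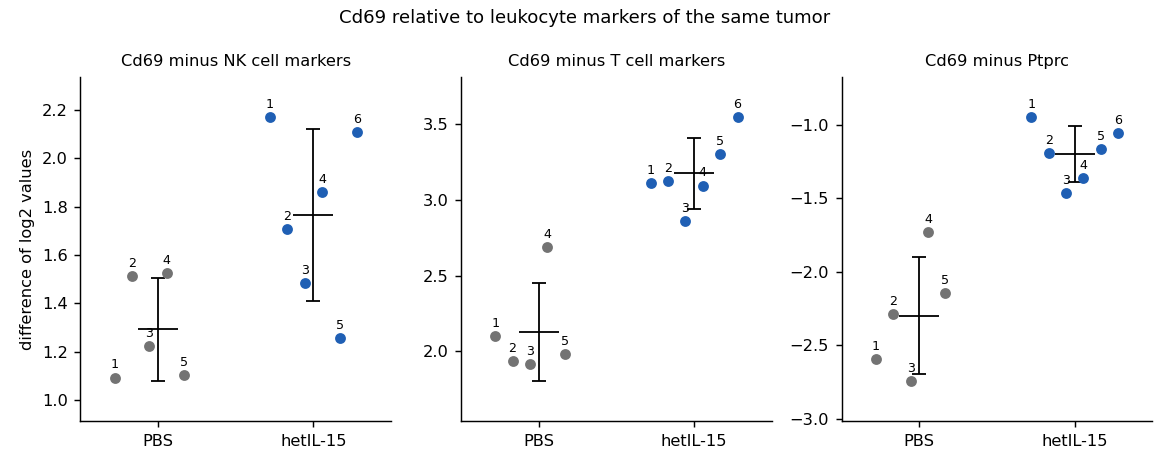
Log2 value of *Cd69* minus the mean of 12 NK cell markers, the mean of 9 T cell markers, or *Ptprc*, in each of 5 PBS (gray) and 6 hetIL-15 tumors (blue), with replicate numbers, and the mean with SD in black. The groups separate in the T cell and *Ptprc* panels, and overlap in the NK cell panel, where hetIL-15 replicates 3 and 5 lie within the PBS range.

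Within groups, tumors high for one of the 9 genes were not high for the others as a set. After each gene was centred on its group mean, the 36 pairs had Pearson correlations over 11 tumors between −0.56 (*Cd69* and *Dusp4*) and 0.79 (*Jun* and *Dusp6*), with a median of 0.11, and 21 were above 0. By an exact permutation within groups (86400 arrangements), 0 of 36 pairs passed after adjustment and 2 had an unadjusted p under 0.05. These were *Jun* with *Dusp6* (r = 0.79, permutation p = 0.0129, adjusted p = 0.232; Spearman rho = 0.77, permutation p = 0.00861, adjusted p = 0.310) and *Egr1* with *Jun* (r = 0.55, permutation p = 0.00819, adjusted p = 0.232; rho = 0.65, permutation p = 0.0255, adjusted p = 0.320). For *Jun* with *Dusp6*, r was 0.66 (permutation p = 0.0889) without PBS replicate 5 and hetIL-15 replicate 2, the tumors farthest from the median of *Jun*, and 0.72 within the 6 hetIL-15 tumors. For *Egr1* with *Jun*, r was 0.52 (permutation p = 0.0479) without hetIL-15 replicates 2 and 6, and 0.83 within the hetIL-15 tumors. *Fos* and *Jun*, the partners of AP-1, had r = −0.34 (permutation p = 0.172, adjusted p = 0.681; rho = −0.48, permutation p = 0.127, adjusted p = 0.719), or −0.39 without hetIL-15 replicates 1 and 4. *Egr3* with *Dusp4* (r = 0.65, permutation p = 0.0712, adjusted p = 0.641; rho = 0.59, permutation p = 0.0966, adjusted p = 0.695) rested on hetIL-15 replicates 1 and 4, without which r was 0.13.

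**Figure D4:**
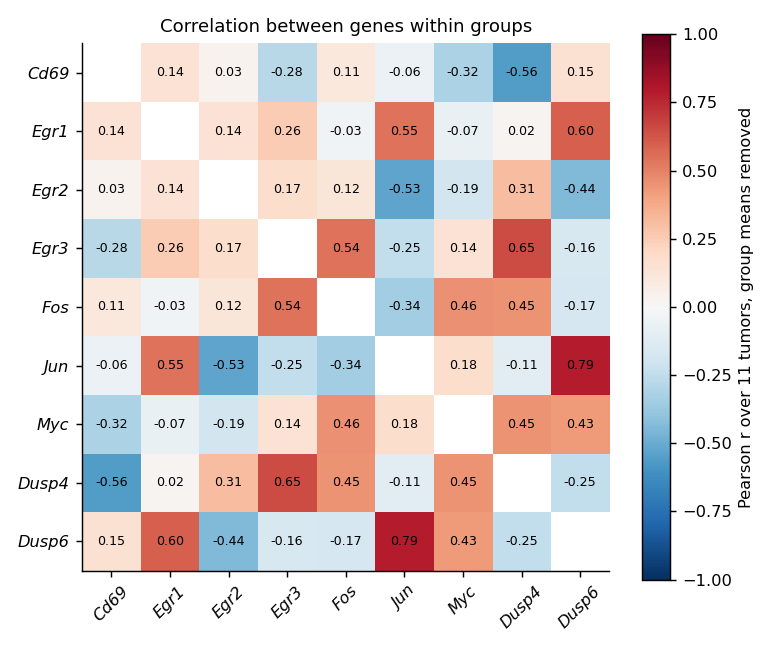
Pearson correlation of each pair of the 9 genes over 11 tumors after removal of group means, from blue (−1) to red (1). The values lie between −0.56 and 0.79, and *Jun* with *Dusp6* is the highest pair.

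The panel genes whose pattern within groups was most like that of each gene are given as a description, over 11 tumors and without a test. Each was picked as the highest among all other genes, so a high r can arise by selection alone. *Cd69* was most like *Mcam* (r = 0.87), an adhesion molecule of vessels and other cells, *Apoe* (0.86), an apolipoprotein of macrophages, and *Entpd1* (0.84), the ectonucleotidase CD39. None of these 3 passed between groups, and with group means kept, r was −0.09, 0.23 and −0.08. *Fos* was most like *Ccl7* (r = 0.79), a monocyte chemokine that rose between groups (log2 fold change 0.59, adjusted p = 0.0162 from limma) while the mean of *Fos* was lower, and with group means kept r was −0.21. *Jun* was most like *Tgfbr1* (0.88), a TGF-beta receptor, and *Dusp6* like *Nrp1* (0.92), the coreceptor neuropilin 1, which was also the third gene for *Jun* (0.80). *Myc* was most like the proteasome subunit *Psmb7* (0.91), *Dusp4* like *Sigirr* (0.92), an inhibitory receptor of the IL-1 family, and *Egr1* like *Fn1* (0.75), which encodes fibronectin. *Egr2* was most like *Nlrp3* (0.90), an inflammasome sensor, and *Egr3* like *Tlr5* (0.91), the flagellin receptor, which is low in signal.

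Other genes of the same pathways did not pass by limma. These are RNA levels, and the activity of the pathways was not measured. Of 20 listed genes of the MAP kinase cascade, 14 were measured. Of these, 0 rose and 0 fell, 0 had an unadjusted p under 0.05, and the median log2 fold change was −0.03. The smallest p belonged to *Map3k5*, which encodes the stress kinase ASK1 (log2 fold change −0.32, adjusted p = 0.535), and *Map2k1*, which encodes the ERK activator MEK1 (−0.18, adjusted p = 0.550). Of 18 listed transcription factors that bind early response promoters, 16 were measured. Of these, 0 passed, 0 at an unadjusted p under 0.05, with a median of −0.03. *Nfatc2*, a calcium-dependent factor of T cells, had −0.43 (adjusted p = 0.510 from limma). *Creb1*, which binds the cAMP response element, had −0.17 (adjusted p = 0.558 from limma).

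Of 29 other early response genes listed, 18 were measured, and *Junb*, *Fosb*, *Nr4a1* and *Dusp1* were among those that were not. Of the 18, 0 passed and 2 had an unadjusted p under 0.05, with a median of −0.02. These were *Csf2*, which encodes GM-CSF (log2 fold change 0.78, adjusted p = 0.318 from limma, low in signal), and *Socs3*, a feedback inhibitor of cytokine signaling (0.42, adjusted p = 0.395 from limma). For proximal T cell receptor signaling, 10 of 19 listed genes were measured, and *Lat*, *Lcp2* and *Vav1* were not. The 10 include *Syk* and *Btk*, kinases not limited to T cells. Of the 10, 0 passed, with a list median of 0.16. The 2 with an unadjusted p under 0.05 were the kinases *Syk* (−0.36, adjusted p = 0.228 from limma) and *Txk* (1.37, adjusted p = 0.358 from limma). Among 21 other activation antigens of lymphocytes, 0 passed, and the median was −0.06. The 2 with an unadjusted p under 0.05 were *Tnfrsf9*, which encodes the costimulatory receptor 4-1BB (0.64, adjusted p = 0.301 from limma), and *Cd40lg*, the ligand of CD40 (−1.28, adjusted p = 0.331 from limma), both low in signal. The medians compare with −0.03 over all genes, and scaling to housekeeping genes moved the median of all genes up by 0.09 and the 4 list medians below 0 to between 0.03 and 0.07.

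**Figure D5:**
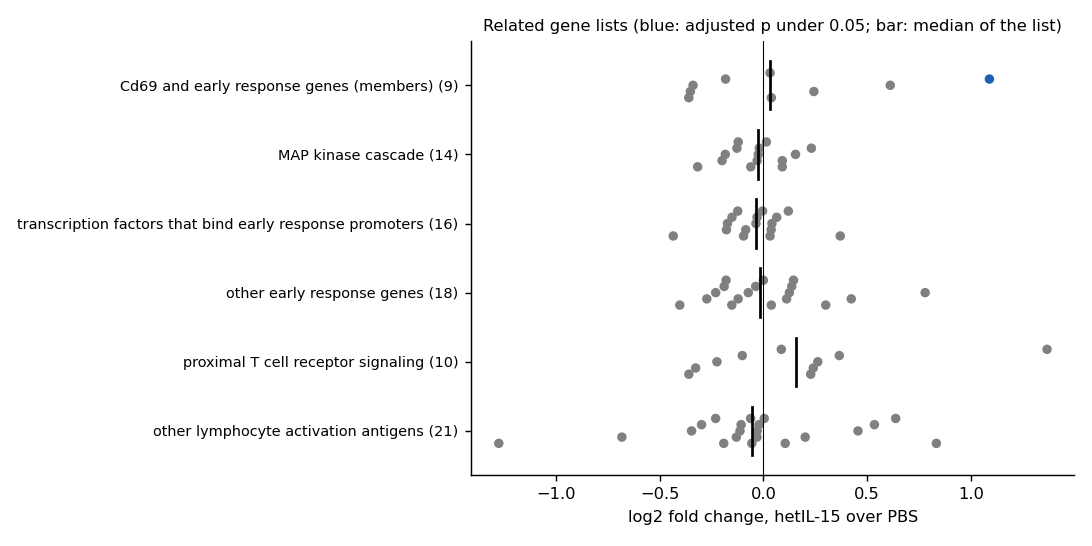
Log2 fold change, hetIL-15 over PBS, of the measured genes of 6 lists (number in brackets), 1 point per gene, with the list median as a bar and genes with an adjusted p under 0.05 in blue. *Cd69*, at 1.09, is the only blue point, and the list medians lie between −0.06 and 0.16.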

How the data were processed

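RNA of 11 tumors was measured with the nCounter PanCancer Immune panel of 780 genes, whose color-coded probes are counted one by one. Per the study's methods, the authors removed genes of low expression, which left 758, and the deposited log2 values, quantile normalized by them, were used as given. Quantile normalization gives every tumor 1 distribution, so a global shift would not be seen. A probe table served only for probe class, since its 11 columns of counts match no tumor label. Groups followed the treatment label. All genes were fitted with limma 3.58.1 (lmFit and eBayes, no covariates) in R 4.3.3, with Benjamini-Hochberg adjustment over the whole table. The methods name Bonferroni, which was an alternative. The fit was tested on simulated data. Single values were compared by exact permutation with Python 3.11.15. Named genes were the leading ones of the 3 most like each gene, those passing or with the 2 smallest p in each list, and the markers used. The genes, lists and alternatives were chosen with earlier results of these data known. Alternatives were housekeeping and median scaling, omission of the lowest 25% of genes, an intensity trend, array weights, Mann-Whitney tests, a replicate block and omission of tumors. The labels do not say whether tumors of the same replicate number are paired.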

Additional observations from a re-analysis of the deposited data

Results flagged for a closer look

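In 2 of 18 groups of values (9 genes in PBS and in hetIL-15 tumors), 1 tumor lay far from the others of its group by Dixon's test, which flags about 5% of groups by chance. Both times it was PBS replicate 5. *Jun* had a log2 value of 12.01 there and of at most 11.47 in the other PBS tumors (gap 0.78 of the range), and *Dusp6* had 11.33 there and at most 10.99 in the others (gap 0.71 of the range). This tumor also had the highest *Myc* and *Egr1* values and the lowest *Egr2* and *Egr3* values of the PBS tumors.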

How the results depend on the processing

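The log2 fold change of *Cd69* stayed between 1.04 and 1.19 with 1 tumor left out, with an adjusted p of at most 0.0146. It did not pass with the replicate number as a block (1.05, adjusted p = 0.0674), where 0 of the 9 genes rose in place of 1. The block fit leaves out hetIL-15 replicate 6, which has no PBS tumor of its number. Nor did *Cd69* pass by the exact Mann-Whitney test (1.09, adjusted p = 0.173), which passed 0 genes of the table. *Cd69* was among 19 genes at the smallest p that test can give with these tumors, 0.00433. In all other alternatives run 1 gene rose. The number that fell was 0 in every alternative run. The replicate numbers share no animal or batch in the labels, and same-numbered tumors correlated between −0.05 and 0.13 after group means were removed, with 1 of 5 PBS tumors best matched by its own number. *Cd69* relative to the mean of the NK cell markers lay between 0.39 and 0.57 with 1 tumor left out, and was 0.49 without PBS replicates 4 and 5, 0.47 by the exact Mann-Whitney test (p = 0.0519) and −0.013 relative to the median of the markers. Near 0, the sign of uncalled genes turned: with 1 tumor left out *Jun* lay between −0.016 and 0.16 and *Dusp4* between −0.10 and 0.19, and *Dusp4* was −0.048 with array weights and −0.045 with the replicate block. The other uncalled genes kept their sign in all alternatives run. With 1 tumor left out, values lay between 0.12 and 0.40 for *Egr1*, 0.34 and 0.89 for *Egr2* and −0.49 and −0.22 for *Egr3*. They lay between −0.44 and −0.26 for *Fos*, −0.46 and −0.23 for *Myc* and −0.23 and −0.10 for *Dusp6*. Nearer 0 were *Myc* at −0.17 and *Dusp6* at −0.08 without PBS replicates 4 and 5, and *Fos* at −0.25 with housekeeping scaling. The measures relative to T cell markers and *Ptprc* passed in all alternatives run. The low-signal genes *Egr2* and *Egr3* could not be tested without the lowest 25% of genes. Depth per tumor is unknown.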
